A study of Homo sapiens with 4 samples.

Results

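Oxidative phosphorylation is carried out by 5 protein complexes of the inner mitochondrial membrane. Complexes I to IV pass electrons from NADH and succinate to oxygen and, except for complex II, pump protons. Complex V, the ATP synthase, uses the proton gradient to make ATP. Most subunits are encoded in the nucleus and imported, while a small set of core subunits of complexes I, III, IV and V is encoded by the mitochondrial DNA, which is transcribed from both strands as long precursors that are then cut into single messages. The assembled complexes therefore need the products of both genomes.

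The transcripts described here were those of 95 genes of the 60623 in the table. They were chosen by gene name, from the prefixes of the subunits of complexes I to V, and by a mean of at least 10 counts over all 4 libraries. Control and CBX7 values entered that mean alike, and no difference between the groups was used. A total of 103 names matched once 147 pseudogene names were left out, and 8 of these were under the minimum, 3 of them with 0 counts in every library. MT-ATP6 and MT-ATP8, whose names end in a P and a digit as pseudogene names do, were kept because the rule asks for the 13 mitochondrially encoded genes. The 95 members were these 13 genes, 77 nuclear protein-coding genes and 5 antisense or readthrough loci that carry a subunit's name. Of the nuclear coding members 37 belonged by name to complex I, 4 to complex II, 8 to complex III, 10 to complex IV and 18 to complex V. All 95 passed the filter on low counts and were tested.

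T24 is an established line of human bladder carcinoma cells. RNA was sequenced in 2 control libraries and in 2 from cells that overexpressed CBX7, a chromobox protein of the Polycomb repressive complexes, from a pCDH-3xFLAG vector. The sources used here name no other treatment of either group and do not say whether the overexpressing line was 1 clone, what vector the control cells carried, or whether libraries of a group came from separate cultures. The p-values below therefore measure the spread between these libraries, which may be technical. In RNA from a whole culture, fewer cells that express a gene and less RNA per cell cannot be told apart.

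Summed expected counts were 23626206 and 20800910 in control replicates 1 and 2 and 25135488 and 21961166 in CBX7 replicates 1 and 2. CBX7 itself had 261.4 and 203.3 counts in the control libraries and 42852 and 35641 in the CBX7 libraries, so the labels of all 4 libraries matched the overexpressed gene. Of the markers, 5 of 6 epithelial genes passed the filter, among them KRT7, KRT8 and KRT18, while CDH1 had at most 2 counts. Urothelial markers were largely at the floor, with 2 of 8 past the filter and UPK3A, KRT5 and UPK1A at or near 0. None of 6 markers of blood, endothelial and liver cells passed. The tested epithelial markers had a median log2 fold change of 0.30, with CBX7 replicate 1 the highest library for all 5. Of these, KRT19 was higher in both CBX7 libraries, at 446 and 285 counts against 156 and 120, as was the urothelial factor GATA3, at 14 and 22 counts against 3 and 4. Neither passed an adjusted p of 0.05, and the mesenchymal markers VIM and CDH2 had log2 fold changes of −0.19 (SE 0.15) and −0.23 (SE 0.16), below 0 in both pairs of same-numbered libraries. The part of these markers in the results below was not tested. CBX7 replicate 1 stood apart in its dependence on gene length, which is described with the values below.

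No oxidative phosphorylation gene differed between CBX7-overexpressing and control cells beyond the spread between libraries. Not one of the 95 passed an adjusted p of 0.05 in the quasi-likelihood test of edgeR, with p-values adjusted by the Benjamini-Hochberg method over 14862 genes, where 0.0202% of all genes tested (3 genes) did. The lowest adjusted p among them was 0.951. At an unadjusted p under 0.05 there were 0 members, against 3.42% of all genes tested that were higher and 1.32% that were lower with CBX7. DESeq2's Wald test also called 0 members at either threshold, while 13 members with no filter on low counts, and 19 with the replicate number as a term, were at an unadjusted p under 0.05 and 0 past the adjusted one. Over all genes the counts at that unadjusted threshold were then 1368 of 26247 and 1511 of 14862. With 2 libraries a group the standard error (SE) of the log2 fold change ran from 0.126 to 0.319 among nuclear coding members, so differences of the size seen here could not be told from the spread.

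The values themselves were nevertheless far from even across the 4 libraries. The median log2 fold change was 0.29 over the 77 nuclear coding members, 0.06 over the 13 mitochondrial genes and 0.002 over all genes tested. Replicate by replicate, the nuclear median was 0.50 for CBX7 replicate 1 over control replicate 1 and 0.02 for CBX7 replicate 2 over control replicate 2. The mitochondrial medians were 0.12 and 0.002 in the same pairs, and those of all genes were −0.002 and −0.005. These ratios are differences in log2 CPM (counts relative to the library total as scaled by the TMM method, with a prior count of 2). No source used here says that a replicate number marks a shared batch. The control libraries differed little from each other, with a nuclear median of 0.08 for control replicate 1 over 2. The CBX7 libraries differed by 0.58 in the nuclear median, more than CBX7 and control cells did.

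**Figure D1:**
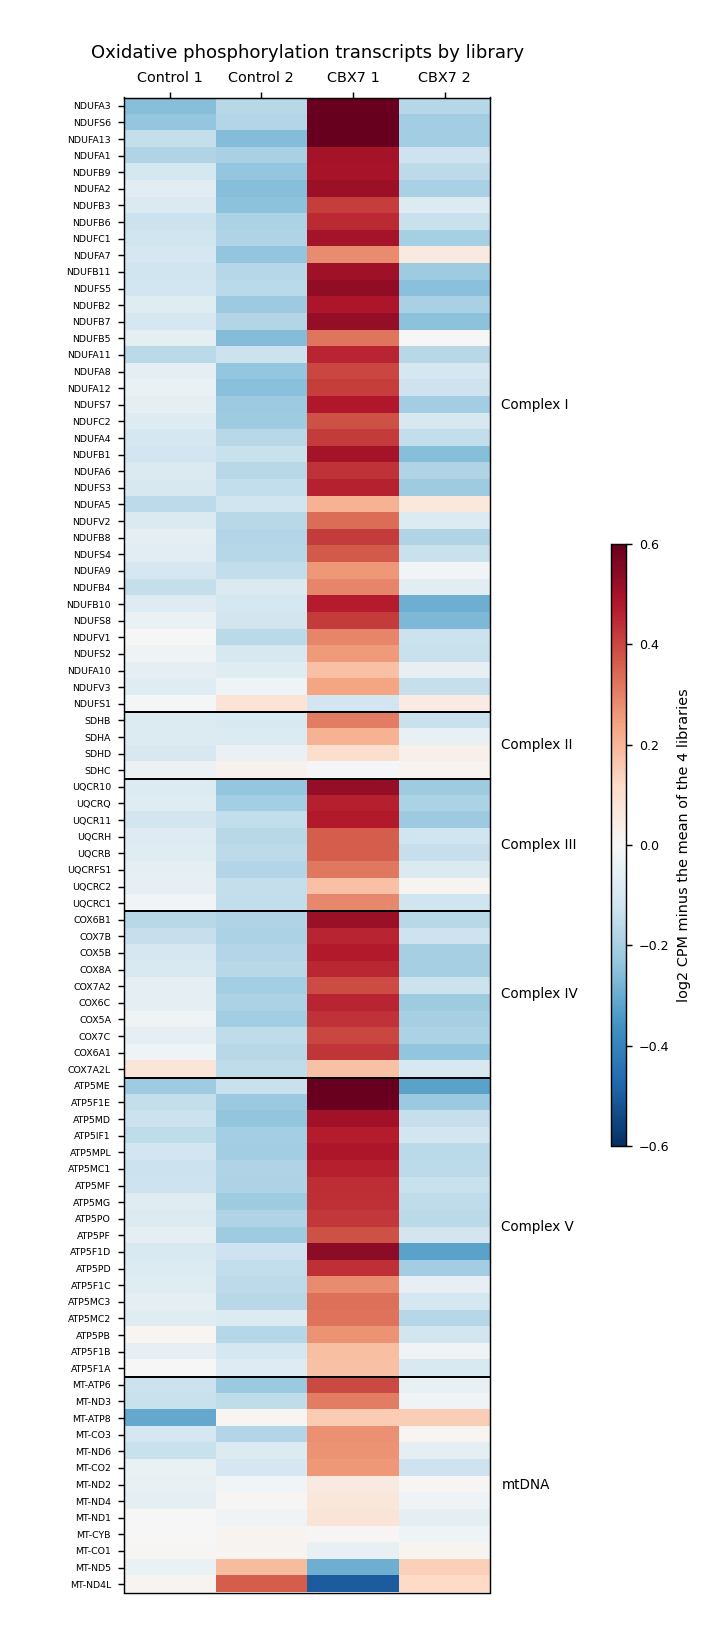
Log2 CPM of the 77 nuclear coding members by complex and of the 13 mitochondrially encoded genes (mtDNA), each row minus its mean over the 4 libraries; columns are libraries, colours are cut off at 0.6 in either direction, and rows of a block run from the highest to the lowest log2 fold change. CBX7 replicate 1 was the highest library in 75 of 77 nuclear rows and in 9 of 13 mitochondrial rows, and CBX7 replicate 2 resembled the controls.

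CBX7 replicate 1 was the highest of the 4 libraries for 75 of 77 nuclear coding members (97.4%) and 9 of 13 mitochondrial genes, where it was highest for 40.3% of all genes tested. The heat map by library shows this column standing apart in every complex. Both CBX7 libraries lay above both controls for 16 of 77 nuclear coding members (20.8%), set beside 15.4% of all genes tested. They lay below both controls for 0 members, set beside 14.8% of all genes. For the other 59 nuclear members with their maximum in CBX7 replicate 1, CBX7 replicate 2 was within or below the range of the controls. The share of nuclear members separated upward was thus close to that of all genes, and the share separated downward was under it.

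The result was set by a single library. Without CBX7 replicate 1 the nuclear median log2 fold change was −0.01. Without CBX7 replicate 2 it was 0.55, and 79 of the 95 members then passed an adjusted p of 0.05 in edgeR's quasi-likelihood test, as did 5491 of all 15452 genes tested. MT-ND4L and MT-ND5 were the called members that were lower, at −0.70 and −0.37. In that comparison the 1 remaining CBX7 library is assumed to vary as the controls do. Leaving out control replicate 1 or 2 gave 0.33 and 0.24, with 0 members past the threshold.

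**Figure D2:**
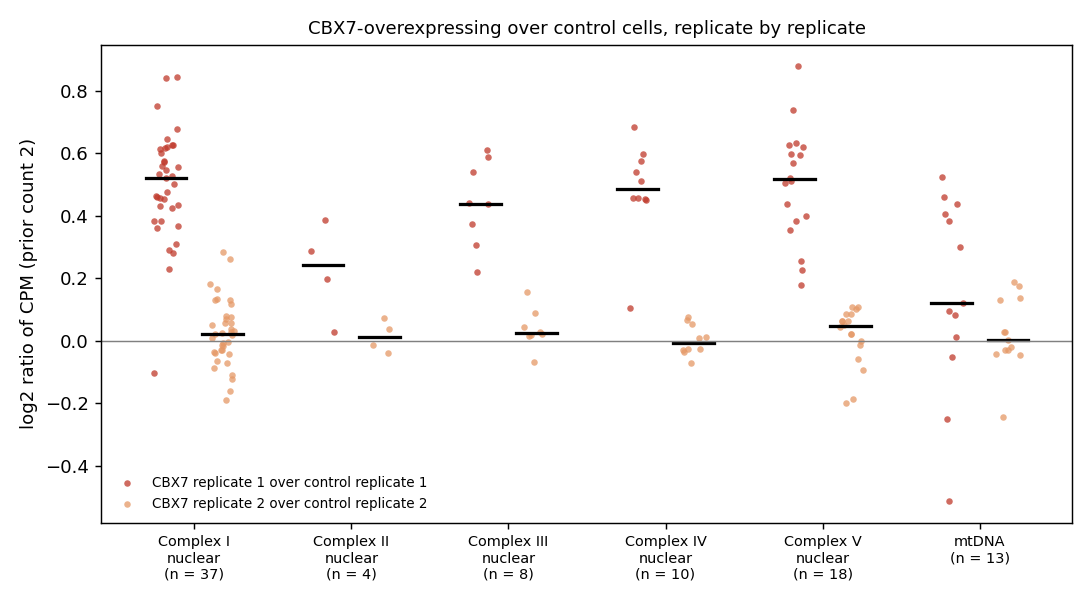
Log2 ratio of CPM for each member (points) by complex and genome, CBX7 replicate 1 over control replicate 1 in red and CBX7 replicate 2 over control replicate 2 in orange; black bars are medians. Nuclear medians in the first pair lie between 0.242 (complex II) and 0.520 (complex I), and in the second pair between −0.009 and 0.048.

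By complex, the medians ran in parallel. The nuclear subunits of complex I had a median log2 fold change of 0.31, with 0.52 and 0.02 in the 2 pairs. Those of complex V had 0.29, with 0.52 and 0.05. Complexes IV and III had 0.28 and 0.26, and complex II, with only 4 genes, had 0.15. The ratio of CBX7 replicate 1 to control replicate 1 (the first pair) was above 0 for 76 of 77 nuclear members and that of replicate 2 (the second pair) for 47 of 77. Of all 14862 genes tested, 7415 and 7225 were above 0 in these pairs. The plot of ratios by complex shows the same displacement between pairs in each complex, and it was smallest in complex II.

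Complex I is the NADH dehydrogenase and the entry point of most electrons. Its 7 nuclear core subunits, which hold the flavin and iron-sulfur clusters, had a median log2 fold change of 0.19, and the other 30 nuclear subunits by name, mostly small accessory proteins, had 0.33. The core genes were longer, with a median effective length of 635 bases against 408. NDUFS1 (chr2:206114817-206159603, minus strand, GRCh38), the largest subunit of the peripheral arm, was at 125.7 and 134.1 CPM in the control libraries and at 117.0 and 131.3 CPM in the CBX7 libraries. Here CBX7 replicate 1 was the lowest library, which made NDUFS1 the 1 nuclear member below 0 in that pair, and its log2 fold change was −0.07 (SE 0.14).

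NDUFB8, an accessory subunit of the membrane arm whose protein is often used to follow complex I assembly, had the highest mean TPM of the nuclear complex I genes, at 670.9. It was at 213.8 and 196.9 CPM in the control libraries and at 297.7 and 196.4 CPM in the CBX7 libraries. CBX7 replicate 1 was high and CBX7 replicate 2 was below both controls. NDUFA3 (chr19:54102728-54109257, plus strand), a small accessory subunit, was at 14.2 and 15.1 CPM in control cells and at 25.6 and 15.1 CPM in CBX7-overexpressing cells. It had the largest log2 fold change of the nuclear complex I genes, 0.47 (SE 0.27, adjusted p 0.951 by edgeR's quasi-likelihood test), and rested on CBX7 replicate 1.

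Some complex I genes were separated between groups. NDUFA5, an accessory subunit next to the core of the peripheral arm, was at 42.7 and 43.8 CPM in control cells and at 55.0 and 49.7 CPM in CBX7-overexpressing cells. It had the lowest unadjusted p of all 95 members, 0.0873 by edgeR's quasi-likelihood test with an adjusted p of 0.951, and was singled out after its values were seen. NDUFA4 carries a complex I name and was counted there, although its protein is a subunit of complex IV. It was at 62.0 and 59.5 CPM in control cells and at 89.4 and 60.3 CPM in CBX7-overexpressing cells, so CBX7 replicate 2 was inside the control range and CBX7 replicate 1 above it.

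Complex II, succinate dehydrogenase, links the citrate cycle to the chain and has no mitochondrially encoded subunit. SDHA, its flavoprotein, was at 141.9 and 142.0 CPM in the control libraries and at 173.3 and 145.6 CPM in the CBX7 libraries. SDHB, the iron-sulfur subunit, was at 65.2 and 64.7 CPM against 85.3 and 62.9 CPM. SDHC, a membrane anchor, was at 98.9 and 103.4 CPM against 100.9 and 102.5 CPM, the narrowest range of the 4 genes. SDHD, the other anchor, was at 83.7 and 86.8 CPM against 95.9 and 91.3 CPM. SDHA and SDHD were thus separated between groups, by log2 fold changes of 0.17 (SE 0.14) and 0.14 (SE 0.13), and SDHB and SDHC overlapped.

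Complex III is the cytochrome bc1 complex. Its core proteins UQCRC1 and UQCRC2 and the Rieske protein UQCRFS1 had a median log2 fold change of 0.19, and the 5 other nuclear subunits had 0.30. UQCRC1 was at 230.0 and 210.0 CPM in control cells and at 284.4 and 214.3 CPM in CBX7-overexpressing cells. UQCR10, a small subunit, was at 52.6 and 47.3 CPM against 80.3 and 48.0 CPM, and UQCRH, the hinge protein that docks cytochrome c1, was at 171.7 and 161.8 CPM against 233.3 and 167.0 CPM. In all 3, CBX7 replicate 1 was the high library and CBX7 replicate 2 lay inside the control range.

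Complex IV, cytochrome c oxidase, reduces oxygen. COX8A, the ubiquitous form of a small nuclear subunit, had the highest mean TPM of the nuclear complex IV genes (777.6) and was at 139.0 and 131.8 CPM in control cells and at 202.2 and 129.0 CPM in CBX7-overexpressing cells. COX6B1, on the side facing the intermembrane space, was at 56.6 and 56.0 CPM against 90.9 and 56.5 CPM. COX7A2L, which links complexes III and IV in supercomplexes and has an effective length of 1433 bases, was at 85.2 and 73.0 CPM against 91.6 and 75.7 CPM. It had the smallest log2 fold change of this complex, 0.08 (SE 0.16).

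The tissue-restricted forms of complex IV were under the minimum. COX6A2 and COX7A1, the heart and muscle forms, and ATP5MGL, a paralog of ATP5MG, had 0 counts in every library, a level at which up to 3 counts, 0.119 to 0.144 CPM, could have been missed by counting error alone. COX7B2, COX8C and UQCRHL each had about 1 count in a single library. COX6B2, the testis form, had 1 and 1 counts with control and 4 and 4 with CBX7, and NDUFA4L2, a hypoxia-induced paralog of NDUFA4, had 4 and 3 against 12 and 6. Just inside the threshold were NDUFV2-AS1, with a mean of 10.0 counts, and NDUFB2-AS1, with 11.6.

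Complex V had 18 nuclear members. The 5 subunits of its F1 head, ATP5F1A to ATP5F1E, had a median log2 fold change of 0.24, the 3 genes for the proton-carrying c-ring had the same value, and the 9 stalk and membrane subunits had 0.32. ATP5F1A, the alpha subunit of the catalytic head, was at 526.0 and 500.3 CPM in control cells and at 595.3 and 495.0 CPM in CBX7-overexpressing cells, the lowest log2 fold change of the complex, 0.09 (SE 0.14). ATP5ME (chr4:672436-674338, minus strand), a small membrane subunit with a deposited length of 303 bases, was at 30.8 and 32.6 CPM against 56.7 and 28.6 CPM. It held both the highest CBX7 replicate 1 ratio of the nuclear members, 0.88, and one of the lowest in the other pair, −0.19.

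ATP5MD, a membrane subunit of the synthase dimer, had the highest mean TPM of the nuclear complex V genes (1253) and was at 112.7 and 104.6 CPM in control cells and at 175.0 and 112.2 CPM in CBX7-overexpressing cells. ATP5IF1, the inhibitor protein that blocks ATP hydrolysis when the gradient collapses, was at 75.6 and 73.0 CPM against 116.3 and 77.5 CPM. Its groups did not overlap, though CBX7 replicate 2 lay close to the nearer control. Its log2 fold change was 0.38 (SE 0.22, adjusted p 0.951 by edgeR's quasi-likelihood test).

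The 16 nuclear members with both CBX7 libraries above both controls came from all 5 complexes: NDUFA1, NDUFA5, NDUFA7, NDUFA9, NDUFA10, NDUFB3, NDUFB4, NDUFB5 and NDUFV2 of complex I, SDHA and SDHD, UQCRC2, COX7B, and ATP5F1B, ATP5F1C and ATP5IF1. NDUFA7 and NDUFB5, accessory subunits of complex I, had the largest ratios of the nuclear members in the second pair, 0.28 and 0.26. NDUFA7, the nuclear coding member with the lowest mean count (247.9), was at 10.0 and 9.1 CPM in control cells and at 13.0 and 11.1 CPM in CBX7-overexpressing cells. NDUFB5 was at 51.7 and 44.96 CPM against 67.4 and 53.9 CPM. In these 2 genes the groups were separated by less than the gap between the CBX7 libraries.

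ATP5F1B, the catalytic beta subunit of the F1 head, had the highest mean count of the nuclear coding members (19478). It was at 819.3 and 787.2 CPM in control cells and at 959.4 and 835.5 CPM in CBX7-overexpressing cells, with a log2 fold change of 0.16 (SE 0.13). ATP5F1D, the delta subunit of the same head, overlapped between groups, at 51.2 and 50.1 CPM against 79.0 and 43.6 CPM. Its CBX7 libraries were the highest and the lowest of the 4, and its ratio in the second pair, −0.20, was the lowest of the nuclear members. NDUFB10 and ATP5ME had nearly the same value in that pair, −0.19.

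The 5 loci with a subunit's name that do not encode a subunit alone were low. ATP5MF-PTCD1, a readthrough locus on chromosome 7, was at 5.2 and 3.5 CPM in control cells and at 5.1 and 5.9 CPM in CBX7-overexpressing cells. NDUFC2-KCTD14, a readthrough locus on chromosome 11, was at 2.2 and 1.6 CPM against 2.6 and 2.3 CPM. NDUFA6-DT, NDUFB2-AS1 and NDUFV2-AS1 were between 0.24 and 1.13 CPM in all libraries. Readthrough loci share exons with their partner genes, and antisense loci overlap them or lie beside them, and whether the counting used strand is not given in the sources used here, so these values are uncertain. Their standard errors reached 0.61.

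The 13 mitochondrially encoded genes, all on chromosome M, held 2.57% and 2.61% of all counts in the control libraries and 2.56% and 2.63% in the CBX7 libraries. The group means of 2.589% ± 0.0281 and 2.598% ± 0.0516 (SD, n = 2 each) differed by 0.00873 percentage points, less than the spread within groups, with a two-sided exact permutation p of 1.0, in a design whose smallest possible p is 0.333. The nuclear coding members held 0.829% and 0.784% of counts with control and 1.06% and 0.804% with CBX7, with an exact permutation p of 0.667. The ratio of nuclear to mitochondrial counts was therefore 0.323, 0.301 and 0.305 in control replicates 1 and 2 and CBX7 replicate 2, and 0.413 in CBX7 replicate 1.

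**Figure D3:**
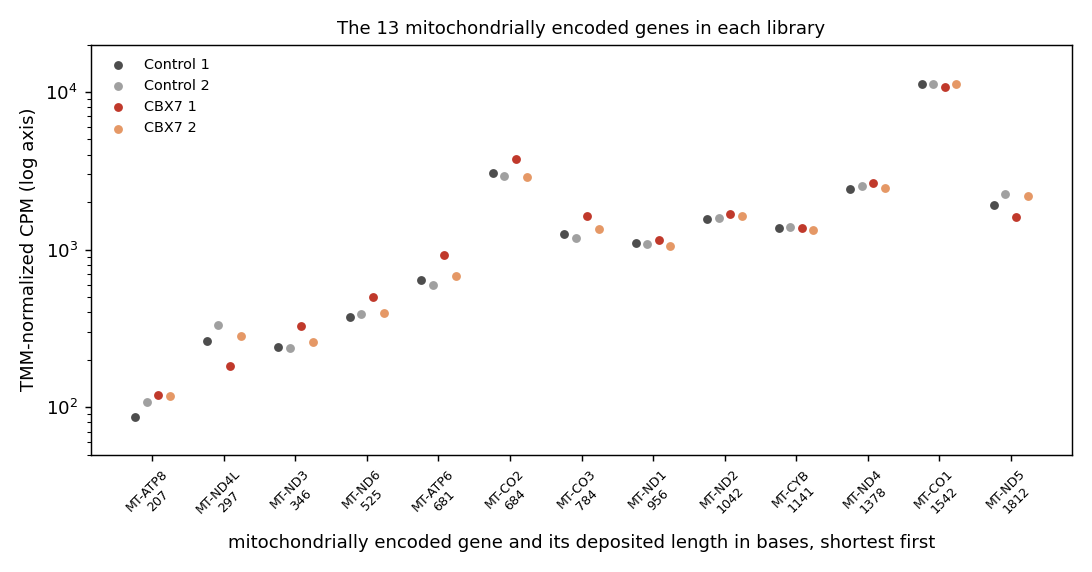
TMM-normalized CPM (log axis) of the 13 mitochondrially encoded genes, ordered by deposited length, in each of the 4 libraries. MT-CO1 is the highest gene in every library, at 10776 to 11250 CPM, and CBX7 replicate 1 is the lowest library for MT-ND4L, MT-ND5 and MT-CO1 and the highest for 9 of the 13 genes.

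MT-CO1, the catalytic subunit of cytochrome c oxidase, gave the most counts of these genes, 43.9%, 43.5%, 40.4% and 43.5% of the mitochondrial counts in control replicates 1 and 2 and CBX7 replicates 1 and 2. It was at 11169 and 11236 CPM in control cells and at 10776 and 11250 CPM in CBX7-overexpressing cells. The other mitochondrial subunits of complex IV did not follow the same order of libraries. MT-CO2, which takes electrons from cytochrome c, was at 3057 and 2927 CPM against 3761 and 2884 CPM, and MT-CO3 at 1247 and 1188 CPM against 1625 and 1352 CPM. MT-CO3 was separated between groups, with a log2 fold change of 0.29 (SE 0.14).

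MT-ATP6, which forms the proton channel of complex V with the c-ring, was at 640.2 and 600.5 CPM in control cells and at 920.8 and 677.8 CPM in CBX7-overexpressing cells. Both CBX7 libraries were above both controls, and the log2 fold change of 0.37 (SE 0.18, adjusted p 0.951 by edgeR's quasi-likelihood test) was the largest of the mitochondrial genes. MT-ATP8, its small partner, was at 86.4 and 107.7 CPM against 118.8 and 118.4 CPM. In both pairs MT-ATP6 was above 0, at 0.52 and 0.17. Its log2 fold change was 0.13 without CBX7 replicate 1 and 0.57 without CBX7 replicate 2. After the corrections described below it was 0.15 for deposited length, 0.185 for length and GC, and 0.12 for effective length. With length and GC, MT-ATP6 was the only member at an unadjusted p under 0.05, where 1130 of all 14862 genes were. That p was 0.0135, with an adjusted p of 0.451, by edgeR's quasi-likelihood test.

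Of the complex I genes of the mitochondrial DNA, MT-ND3 was at 241.8 and 238.4 CPM in control cells and at 327.5 and 261.0 CPM in CBX7-overexpressing cells. MT-ND6, the only member transcribed from the opposite strand, was at 375.6 and 389.9 CPM against 497.1 and 397.1 CPM. Without a known strand setting, reads of MT-ND6 cannot be told from antisense reads of its locus. MT-ND1, MT-ND2 and MT-ND4 had log2 fold changes of 0.03, 0.06 and 0.05, and MT-CYB, the mitochondrial subunit of complex III, had −0.02.

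MT-ND4L, MT-ND5 and, by a small margin, MT-CO1 were lowest in CBX7 replicate 1. MT-ND4L was at 262.1 and 333.9 CPM in the control libraries and at 183.7 and 281.7 CPM in the CBX7 libraries. MT-ND5 was at 1913 and 2244 CPM against 1607 and 2175 CPM. The groups overlapped for MT-ND4L and MT-ND5, and both pairs were below 0: −0.51 and −0.25 for MT-ND4L, and −0.25 and −0.05 for MT-ND5. The control libraries also differed here, control replicate 2 being higher in both genes, and the log2 fold changes were −0.36 (SE 0.24) and −0.14 (SE 0.19). Without CBX7 replicate 1 they were −0.08 and 0.07, so that MT-ND5 changed sign, and without control replicate 2 they were −0.17 and −0.02. Without control replicate 1 they were −0.52 and −0.25, and without CBX7 replicate 2 they were −0.70 and −0.37. With the corrections for deposited length, length and GC, and effective length, described below, MT-ND4L was at −0.53, −0.51 and −0.59, farther from 0 than uncorrected, and MT-ND5 at −0.20, −0.17 and −0.185. In all, 6 of 13 mitochondrial genes (46.2%) had both CBX7 libraries above both controls, set beside 15.4% of all genes tested, and 0 had both below, set beside 14.8%. The 6 were MT-ND2, MT-ND3, MT-ND6, MT-CO3, MT-ATP6 and MT-ATP8.

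Neighbouring mitochondrial genes overlap on the DNA, and a read in the overlap can belong to either. The overlaps of more than 1 base are shown because they bear on the values of MT-ATP6, MT-ATP8 and MT-ND4L, with the shared bases in capitals and the flanks in lower case, on the plus strand of GRCh38. MT-ATP8 and MT-ATP6 share 46 bases, chrM:8527-8572, and MT-ND4L and MT-ND4 share 7 bases, chrM:10760-10766. MT-ATP6 and MT-CO3 also share 1 base, at position 9207, which is not printed.
MT-ATP8 into MT-ATP6: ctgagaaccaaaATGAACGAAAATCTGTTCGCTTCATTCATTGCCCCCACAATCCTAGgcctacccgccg
MT-ND4L into MT-ND4: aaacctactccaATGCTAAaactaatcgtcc
Counts were not whole in any library for MT-ATP6, MT-ATP8 and MT-ND4, and likewise for MT-CO1, MT-CO2 and MT-CO3, which neither printed stretch touches. MT-ND4L and MT-ND2 were whole in control replicate 1 alone, and MT-ND1 in control replicate 2 alone. MT-ND6 was whole in all libraries but CBX7 replicate 2, and MT-ND5, MT-CYB and MT-ND3 were whole in all 4 libraries. Whether the overlaps account for the values that are not whole was not tested. MT-ND4L, at 297 bases, and MT-ATP8, at 207 bases, are also about as long as a sequenced fragment or shorter.

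Per length, the mitochondrial genes stood far above the nuclear ones. Summed TPM (relative transcript abundance, in which counts are divided by length) was 58264 and 61757 for the 13 mitochondrial genes in the control and 49954 and 64753 in the CBX7 libraries. For the 77 nuclear coding members it was 20572 and 19829 in the control and 23799 and 20452 in the CBX7 libraries. On this scale CBX7 replicate 1 was the lowest library for the mitochondrial sum and the highest for the nuclear one. The deposited TPM of short genes rests on a small divisor: over 9 mitochondrial genes of at least 500 bases, the count per TPM was linear in deposited length with 247 to 266 bases subtracted. MT-ATP8 so had a mean TPM of 13168 on a mean count of 2459, the highest TPM of the 13, and its level per length is uncertain. For MT-CO1 the TPM implied a length of 1793 to 1832 bases where the table lists 1542, so its TPM of 8902 is not on the listed length.

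Nuclear levels per length also varied by complex. Summed TPM in control cells was 6976 and 6755 for nuclear complex I genes, 420.4 and 444.3 for complex II, 1987 and 1926 for complex III, 3843 and 3633 for complex IV and 7346 and 7072 for complex V. In CBX7 replicate 2 the sums of complexes I, II and IV lay between those of the controls and those of complexes III and V, 2003 and 7379, above both, while in CBX7 replicate 1 the sums of complexes I, III, IV and V were the highest and that of complex II was the lowest.

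The members are short genes, and the libraries differed by gene length, CBX7 replicate 1 by the most. Effective length is used here for the length that the deposited count and TPM imply, after the ends that a fragment cannot start from are taken off. Its median was 510 bases for nuclear coding members and 2032 bases for all genes tested, and 59 of the 77 were under 1000 bases. Over all genes tested with a defined effective length, the CBX7 replicate 1 ratio had a median of 0.54 under 250 bases (174 genes), 0.43 from 250 to 500 (620 genes), 0.31 from 500 to 1000 (1792 genes), 0.20 from 1000 to 1500 (2112 genes) and −0.27 at 3000 bases or more (4060 genes). In the other pair the class medians stayed between −0.05 and 0.001. Control replicate 1 over control replicate 2 had class medians of 0.03 under 250 bases, 0.09 from 250 to 500 and −0.11 at 3000 bases or more.

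**Figure D4:**
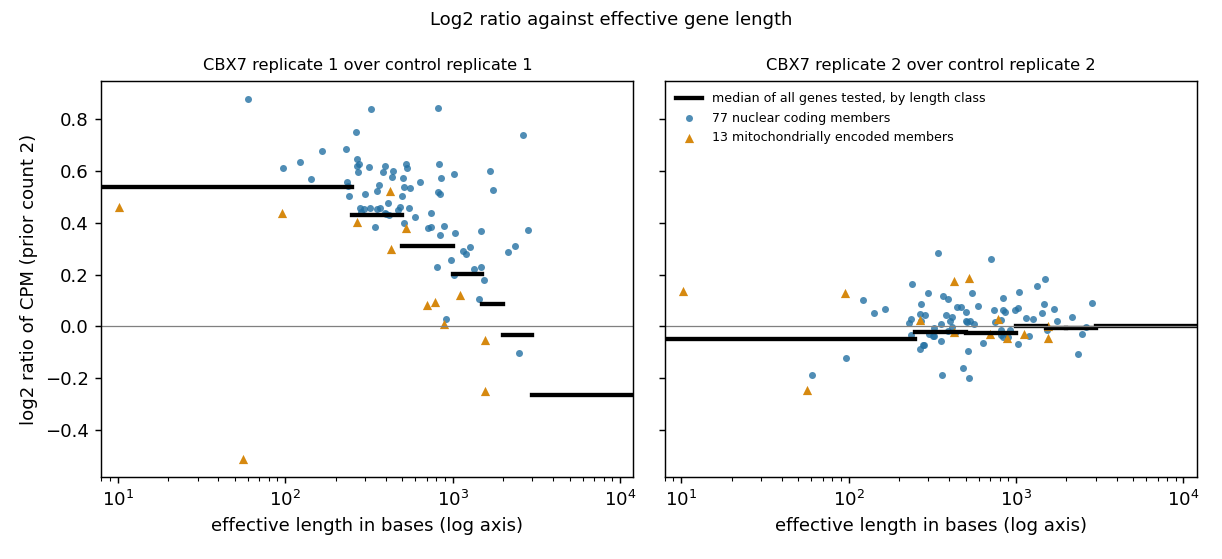
Log2 ratio of CPM against effective length in bases (log axis) for nuclear coding members (blue points) and mitochondrially encoded members (orange triangles), with the median of all genes tested in each length class as black bars. In CBX7 replicate 1 over control replicate 1 the bars step down from 0.537 to −0.265 with length, and in CBX7 replicate 2 over control replicate 2 they stay near 0.

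Nuclear members of the same classes had medians of 0.61 (9 genes), 0.51 (27 genes), 0.50 (23 genes) and 0.29 (10 genes) up to 1500 bases. The few longer ones had 0.53 from 1500 to 2000 bases (3 genes), where all genes had 0.09, and 0.31 from 2000 to 3000 bases (5 genes), where all genes had −0.03. Nuclear members were thus above the median of all genes in each class that held any, and by the most in the classes over 1500 bases, which hold 8 of the 77 genes. Across genes, Spearman's rho of the ratio with effective length was −0.57 over all 13537 genes with a value and −0.58 over the 77 nuclear members in CBX7 replicate 1 over control replicate 1. It was 0.04 and 0.12 in the other pair. These genes share libraries, so the correlations only describe them. Among the mitochondrial genes rho with deposited length was −0.55 over 13, and −0.87 over the 11 left when MT-ND4L and MT-ND5, chosen after their values were seen, were set aside. In the other pair these values were −0.37 and −0.57, so the shorter mitochondrial genes tended to the higher ratios there too.

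A correction of each library for its trend with length lowered the medians. The nuclear median was 0.10 with deposited length, 0.10 with length and GC content together, and 0.05 with effective length, an alternative chosen after seeing the data. With effective length 59 of 77 members were above 0, where the median of all genes tested was −0.003. The mitochondrial median turned to −0.07, −0.04 and −0.08. With effective length the medians were 0.06 for complex I, 0.02 for complex II, 0.09 for complex III, −0.01 for complex IV and 0.03 for complex V. No member passed an adjusted p of 0.05 under any of these corrections. GC content moved little with membership, with a median of 49.0% for nuclear members and 49.7% for all genes tested.

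Single genes shifted by different amounts. After the effective length correction ATP5F1E, the small epsilon subunit of the F1 head, which had 0.43 before, had the highest value of the nuclear members, 0.46 (SE 0.26, adjusted p 0.770 by edgeR's quasi-likelihood test). CBX7 replicate 1 was its highest library before correction, and CBX7 replicate 2 did not lie above both controls. NDUFB1, a small membrane-arm subunit, had the lowest, −0.12 (SE 0.10). NDUFA3 came to 0.16 and ATP5ME to −0.06, where they had led their complexes before, and NDUFS6 went from 0.46 to 0.27. NDUFA5 was at 0.20, the only member of 95 at an unadjusted p under 0.05 after this correction, where 1148 of all 14862 genes were, with an adjusted p of 0.612 by edgeR's quasi-likelihood test. The corrections moved single genes unequally. With those for deposited length, and for length and GC, NDUFA5 was at 0.40 and 0.45, above its uncorrected 0.28. NDUFS6 was at 0.19 and 0.17 with them. NDUFA5 has a deposited length of 5608 bases and an effective length of 1486.5, and NDUFS6 has 550 and 819. The implied length is thus not always the deposited one less its ends. NDUFS6 was at 63.6 and 66.0 CPM in control cells and at 114.1 and 64.5 CPM in CBX7-overexpressing cells, so its uncorrected value rested on CBX7 replicate 1.

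**Figure D5:**
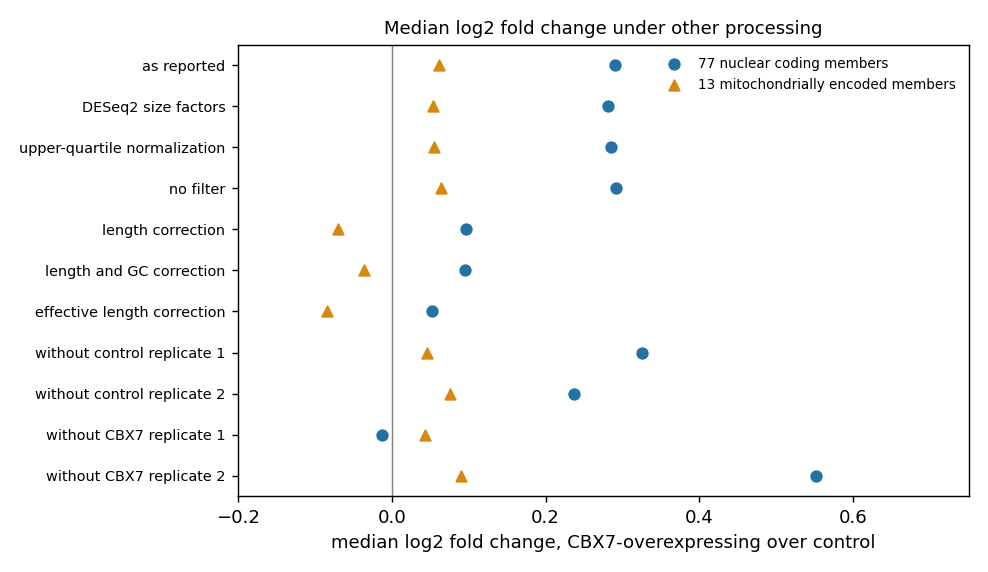
Median log2 fold change of CBX7-overexpressing over control cells for the 77 nuclear coding members (blue points) and the 13 mitochondrially encoded members (orange triangles), as reported and under other normalization, filtering, length correction or with 1 library left out. The nuclear median lies at 0.29 as reported, at 0.052 to 0.096 after length corrections, at −0.013 without CBX7 replicate 1 and at 0.552 without CBX7 replicate 2.

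The nuclear coding members lie on 22 chromosomes, with at most 10 on 1 of them, chromosome 19, so no single locus holds them. Their promoters, from 250 bases before to 50 after the start in RefSeq on GRCh38.p14, were found for 65 of the 77. These genes are known as targets of NRF1, of ETS-family factors such as GABP, and of YY1. The letters GCGCANGCG, a form of the NRF1 site, were found on either strand in 21 of the 65 (32.3%), in 8.0% of all 27305 promoters and in 15.1% of the promoters of genes tested. CCGGAAG, an ETS core, was found in 19 (29.2%), against 10.7% of all promoters and 19.6% of those of genes tested. ATGGCGG, a YY1 site that often spans the start codon, was also found in 19 (29.2%), against 5.7% and 10.5%.

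One promoter per complex is printed to show how these letters lie near the start, chosen for its matches. Each run is 150 bases, from 120 before to 30 after the start, 5′ to 3′ on the gene's strand, with matches on either strand in capitals.
NDUFS6, complex I, chr5:1801287-1801436, plus strand: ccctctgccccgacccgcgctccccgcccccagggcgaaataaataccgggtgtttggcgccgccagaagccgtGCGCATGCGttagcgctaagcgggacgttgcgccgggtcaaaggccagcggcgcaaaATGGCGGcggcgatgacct
SDHD, complex II, chr11:112086753-112086902, plus strand: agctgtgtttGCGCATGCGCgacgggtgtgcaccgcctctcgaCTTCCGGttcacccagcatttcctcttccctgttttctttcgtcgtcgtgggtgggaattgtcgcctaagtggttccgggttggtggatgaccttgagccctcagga
UQCRC1, complex III, chr3:48609617-48609766, minus strand: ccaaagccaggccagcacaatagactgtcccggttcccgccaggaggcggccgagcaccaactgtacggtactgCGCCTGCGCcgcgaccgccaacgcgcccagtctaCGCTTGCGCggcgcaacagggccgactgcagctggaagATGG
COX6A1, complex IV, chr12:120437993-120438142, plus strand: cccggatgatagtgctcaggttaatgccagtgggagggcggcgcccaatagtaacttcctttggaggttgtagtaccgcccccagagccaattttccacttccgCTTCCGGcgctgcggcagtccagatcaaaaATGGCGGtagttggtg
ATP5PF, complex V, chr21:25735025-25735174, minus strand: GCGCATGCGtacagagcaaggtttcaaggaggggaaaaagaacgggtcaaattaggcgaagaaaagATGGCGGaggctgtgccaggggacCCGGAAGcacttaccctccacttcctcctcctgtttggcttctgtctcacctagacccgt
The capitals that end the UQCRC1 run are the first bases of an ATGGCGG match that runs on past the window. Of these windows only that of ATP5PF held all 3 kinds of letters in full. NDUFS6 and SDHD, which both held an NRF1 match, differed in CBX7 replicate 1 over control replicate 1, at 0.84 and 0.20. In the other pair they were at −0.03 and 0.07. Their effective lengths were 819 and 1023 bases, and whether a match goes with the ratio was not tested. A match is a description of the sequence, and no binding was measured in these cells.

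Genes of mitochondrial transcription and biogenesis had a median close to that of all genes and a wide range. Their median effective length was 2534 bases, against 510 for the nuclear coding members. After the effective length correction the medians were 0.03 and 0.05. Of 17 genes of mitochondrial transcription and biogenesis that were tested, 0 were at an unadjusted p under 0.05 in either direction by edgeR's quasi-likelihood test, and the median log2 fold change was 0.006, with single values from −0.13 to 0.52. POLRMT, the mitochondrial RNA polymerase, had 815.3 and 655 counts with control and 1169 and 759 with CBX7, a value of 0.33 (SE 0.20). SLIRP, which stabilizes mitochondrial messages, had 0.48 (SE 0.24), with 0.79 and 0.09 in the pairs, and the coactivator PPARGC1B had 0.52 (SE 0.32), with 0.27 and 0.68. NRF1 itself had 480 and 458 counts with control, 491 and 444 with CBX7. GABPA, the DNA-binding part of GABP, had 926.5 and 914.6 against 714.1 and 1050 counts, with CBX7 replicate 1 the lowest, and TFAM, which packages mitochondrial DNA and starts its transcription, had 2955 and 2717 against 2790 and 3094. PPARGC1A, the coactivator known as PGC-1 alpha, had 1 count in a single library and was not tested.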

How the data were processed

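RNA of 2 control and 2 CBX7-overexpressing T24 libraries was measured. The authors deposited an expected count per gene and library (88.2% to 88.9% of values per library were exactly whole, genes at 0 included), a TPM value with its group mean, a gene length, and their own fold changes and p-values, which were not used. The submitters' processing notes name cutadapt 1.9.1, HISAT2 2.0.1, HTSeq 0.6.1, DESeq2 and hg19, and the counter behind values that are not whole is not given in the sources used here. Libraries were random-primed, with an insert of about 300 bases. Poly(A) selection and strand are not given in the sources used here. Coordinates are from GENCODE release 29 on GRCh38, matched by identifier for 58516 genes (96.5%) and for all 95 members.

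Rounded counts of all 4 libraries went through filterByExpr and TMM scaling, and the groups were compared with glmQLFit and glmQLFTest of edgeR 4.0.16 (R 4.3.3) with Benjamini-Hochberg adjustment. Standard errors were taken as the absolute log2 fold change over the root of F. Length corrections entered as offsets from a loess trend per library (span 0.5, mean count of 100 or more). Alternatives were DESeq2 1.42.0, other size factors, filters and quasi-likelihood form, a replicate block, length and GC corrections, and each library left out. The scripts were tested on simulated data. No library was a copy of another (chi-square over degrees of freedom 6.49 for the control and 59.7 for the CBX7 pair).

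The members and the lists were chosen with earlier results of these data known. Named are the mitochondrial genes, for each complex the nuclear gene of highest mean TPM and of highest and lowest log2 fold change (mean of at least 50 counts), SDHA to SDHD, tissue isoforms, ATP5IF1, and antisense and readthrough loci. Others are given for their role or position and were chosen after their values were seen.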

Additional observations from a re-analysis of the deposited data

How the results depend on the processing

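Members past an adjusted p of 0.05 numbered 0 under every alternative run except without CBX7 replicate 2, so leaving out 1 library in turn gave 0 to 79. Members at an unadjusted p under 0.05 numbered 0 as reported, 13 with no filter (12 higher, beside 1368 of all 26247 genes), 19 with a replicate block (18 higher, beside 1511 of 14862), 1 with each of the length, length and GC, and effective length corrections (beside 1013, 1130 and 1148), 10 and 9 with the block and the length or effective length correction together (beside 1783 and 1970), and 0 to 81 without 1 library in turn (1 without CBX7 replicate 1, beside 1436 of 15343, and 81 without CBX7 replicate 2, beside 6647 of 15452). The cause was not tested. The mitochondrial median of 0.061 was −0.070, −0.036 and −0.084 with the length, length and GC, and effective length corrections, and −0.074 and −0.090 with the block added to the first and last. The mean share of summed TPM on mitochondrial genes was lower with CBX7 by 0.258 percentage points (−0.258), where the share of counts was higher by 0.00873. The TPM shares were 5.87% and 6.22% with control and 5.04% and 6.53% with CBX7. CBX7 replicate 1 was thus the lowest library and CBX7 replicate 2 the highest. Genes of the whole table past an adjusted p of 0.05 numbered 3 as reported, 265 with no filter, 67 with DESeq2, 361 with the block, 310 and 360 with the block and a length correction, 29 with effective length, and 45 to 5491 without 1 library in turn. Same-numbered libraries deviated together (Pearson's r of 0.31 over all genes and over the members). In the median, replicate 1 of each group was above replicate 2 at short genes and below it at 3000 bases or more. With 2 pairs and no label that the number marks a shared batch, the replicate block, with a nuclear median of 0.263, is only a hint from the data. With the block, MT-ND4L was at −0.665 (adjusted p 0.0515 by edgeR) with the length and −0.782 (adjusted p 0.0742) with the effective length correction. Without 1 library the lone library of its group is assumed to vary as the others do. Low counts limit the antisense loci and the genes under the minimum.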

Other observations

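Other genes of the mitochondrion were described by the same counts. Of 78 mitochondrial ribosomal protein genes tested, whose products translate the 13 mitochondrial messages, 1 was at an unadjusted p under 0.05 by edgeR's quasi-likelihood test and 0 past the adjusted threshold. Their median log2 fold change was 0.21, with 0.38 for CBX7 replicate 1 over control replicate 1 and 0.001 in the other pair, and CBX7 replicate 1 was the highest library for 76 of 78. Of 47 assembly factors, which build the complexes and are not part of them, 1 was at an unadjusted p under 0.05, and the median was 0.18, with 0.31 and 0.02 in the pairs. These 2 lists have median effective lengths of 844 and 1095 bases, between those of the nuclear subunits and of all genes tested, and their medians after the effective length correction were 0.04 and 0.05.

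The 13 citrate cycle genes had a median of 0.09, with 0.16 and 0.06 in the pairs, and 0 at an unadjusted p under 0.05. Their median effective length was 1840 bases, and their median after the effective length correction was 0.05. CS, citrate synthase, often used as a measure of mitochondrial content, had 6042 and 5302 counts with control and 5682 and 5879 with CBX7, and its log2 fold change was −0.02 (SE 0.13). The 4 tested subunits and carriers that the name patterns miss, NDUFAB1, COX4I1, CYC1 and CYCS, had a median of 0.26, with 0.44 and 0.02 in the pairs, and COX4I2 had 0 counts in every library. The mitochondrial ribosomal RNAs MT-RNR1 and MT-RNR2, whose removal before sequencing is not described in the sources used here, had log2 fold changes of 0.27 (SE 0.15) and 0.08 (SE 0.12). For each, both control libraries were below the CBX7 libraries.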
